A study of Mus musculus with 18 samples.

Results

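AP-1 is a family of transcription factors that act as pairs of bZIP proteins, built mainly from FOS and JUN proteins together with members of the ATF and BATF groups. Stimulation of a T cell through its antigen receptor switches on several of these genes within minutes to hours, as immediate early genes, and the pairs then bind regulatory DNA alone or beside NFAT and IRF4 proteins. BATF, which has no activation domain of the FOS kind, is best known in CD4+ T cells for its partnership with JUN proteins and IRF4 in effector and Th17 differentiation.

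The 8 genes described here are the FOS genes Fos, Fosb and Fosl2, the JUN genes Jun, Junb and Jund, and the related bZIP genes Atf3 and Batf. They were chosen by name as AP-1 genes, with earlier results of these data known, so counts of them below are descriptions. They are 8 of the 34162 genes in the deposited table, and 8 of 8 were among the 14876 genes left after a filter on low counts. In the GRCm38 (mm10) assembly with GENCODE vM21 annotation, Fos (ENSMUSG00000021250) lies at chr12:85473890-85477273 on the plus strand and Batf (ENSMUSG00000034266) at chr12:85686669-85709087 on the plus strand of the same chromosome. Fosb (ENSMUSG00000003545) lies at chr7:19302696-19310051 on the minus strand and Fosl2 (ENSMUSG00000029135) at chr5:32135801-32157842 on the plus strand. Jun (ENSMUSG00000052684) lies at chr4:95049034-95052222 on the minus strand and Atf3 (ENSMUSG00000026628) at chr1:191170296-191218039 on the minus strand. Junb (ENSMUSG00000052837) lies at chr8:84974484-84978718 on the minus strand, and Jund (ENSMUSG00000071076) at chr8:70698949-70700616 on the plus strand.

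Each library was RNA from about 500 CD4+ effector T cells, sorted 3 weeks after T cell transfer into Rag-deficient mice. Such hosts cannot form T or B cells but keep their other cells. The donor T cells were C57BL/6 Nr1i3-/- (CARko), which lack the nuclear receptor CAR, or C57BL/6 CD45.1+ (WT), and were taken from the small intestine lamina propria (siLP), the colon lamina propria (cLP) and the spleen. The 6 groups of 3 libraries each are siLP CARko, siLP WT, cLP CARko, cLP WT, spleen CARko and spleen WT. Both genotypes had been through transfer and all 18 libraries came from hosts of the same kind. The labels do not say whether each library of a group had its own host, or whether libraries of different groups shared one. The main test treated the 18 libraries as independent. The p-values below therefore measure the spread between these libraries, which may be partly technical.

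Library totals ran from 19605316 to 25436582 estimated counts, and 15466 to 18819 genes had counts. The library called a in each group had fewer genes with counts (15466 to 16128) than libraries b and c (17013 to 18819). The mitochondrial share of counts was 3.70 to 3.98% in the libraries a and 2.23 to 3.22% in the others. The defining T cell gene Cd4 lay between 127 and 236 CPM (counts scaled to library size) in gut libraries and between 109 and 159 CPM in spleen libraries. Nr1i3 had under 3 counts in 10 of 18 libraries and was counted in both genotypes, so its gene-level count does not check the deletion. Its highest value was 196 counts (9.49 CPM) in library a of siLP CARko. The highest WT value was 36 counts (1.66 CPM) in library a of spleen WT.

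The start regions of 5 of the genes are shown because Fos, Fosb, Fosl2 and Atf3 were the FOS-group and ATF genes called between gut and spleen, while Batf was the gene that differed least. Each line gives 250 bases before to 50 after the RefSeq transcript start (assembly GRCm38.p6, 5′ to 3′ on the gene's strand). Capitals mark TGACG, the core of a cyclic AMP response element, or its reverse complement CGTCA.
Fos: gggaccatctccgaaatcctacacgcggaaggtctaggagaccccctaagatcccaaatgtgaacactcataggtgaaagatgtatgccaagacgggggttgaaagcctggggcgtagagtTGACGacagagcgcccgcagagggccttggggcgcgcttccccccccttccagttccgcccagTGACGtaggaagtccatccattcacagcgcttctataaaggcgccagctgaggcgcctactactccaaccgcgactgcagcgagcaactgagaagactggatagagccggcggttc
Fosb: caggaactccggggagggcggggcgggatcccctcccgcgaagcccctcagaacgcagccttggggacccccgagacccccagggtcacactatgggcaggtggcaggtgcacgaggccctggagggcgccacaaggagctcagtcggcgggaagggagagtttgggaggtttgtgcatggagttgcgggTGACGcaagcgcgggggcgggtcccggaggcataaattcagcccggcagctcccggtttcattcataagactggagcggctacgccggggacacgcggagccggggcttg
Fosl2: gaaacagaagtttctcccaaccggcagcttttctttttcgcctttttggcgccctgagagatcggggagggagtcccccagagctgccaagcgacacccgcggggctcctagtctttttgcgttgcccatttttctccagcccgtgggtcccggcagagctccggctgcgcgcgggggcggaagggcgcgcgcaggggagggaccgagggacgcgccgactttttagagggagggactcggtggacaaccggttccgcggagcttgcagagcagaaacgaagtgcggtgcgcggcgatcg
Atf3: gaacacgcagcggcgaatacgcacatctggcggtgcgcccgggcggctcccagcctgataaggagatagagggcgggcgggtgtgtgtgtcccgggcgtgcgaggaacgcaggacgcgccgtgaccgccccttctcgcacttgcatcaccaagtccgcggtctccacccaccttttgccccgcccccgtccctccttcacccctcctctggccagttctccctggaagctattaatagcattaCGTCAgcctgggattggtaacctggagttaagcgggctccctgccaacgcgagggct
Batf: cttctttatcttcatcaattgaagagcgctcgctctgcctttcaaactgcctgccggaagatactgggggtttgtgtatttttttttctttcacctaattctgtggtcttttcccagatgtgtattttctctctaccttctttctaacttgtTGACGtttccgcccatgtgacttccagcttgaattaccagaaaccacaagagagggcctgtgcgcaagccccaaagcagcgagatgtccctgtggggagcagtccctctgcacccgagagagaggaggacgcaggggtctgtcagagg

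The windows lie at chr12:85473640-85473939 for Fos, chr7:19309996-19310295 for Fosb, chr5:32136222-32136521 for Fosl2, chr1:191183284-191183583 for Atf3 and chr12:85686470-85686769 for Batf. Counted on either strand, TGACG occurred in the windows of 5 of the 8 genes (Fos, Fosb, Junb, Atf3 and Batf) and in 20.8% of 32851 RefSeq start windows of the same length. In Fos it began 129 and 66 bases before the start, in Fosb 60, in Atf3 7 and in Batf 98 bases before it. The AP-1 motif TGANTCA was found in 0 of the 8 windows and in 7.81% of all windows, and the full element TGACGTCA in 0 of 8 and in 1.79%. The variant TGACNTCA, of which TGACGTCA is one form, was found in 1 of 8 windows, 45 bases before the start of Jun, and in 8.83% of all. Thus the core stood in the Batf window as well as in those of Fos, Fosb and Atf3, and not in the Fosl2 window. The Fosl2 window begins at 32136222, inside the GENCODE gene, which starts at 32135801. The bases before that start were therefore not searched. The Jund window, chr8:70697489-70697788, ends before the GENCODE start of Jund at 70698949, so the region of that start was not searched either. Atf3 has other annotated starts, and these matches are descriptions of letters and not of binding.

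In gut T cells 5 of the 8 AP-1 genes were higher than in spleen T cells, and none was lower. With the genotypes averaged over 12 gut and 6 spleen libraries, Fos, Fosb, Fosl2, Jun and Atf3 rose, while Junb, Jund and Batf did not pass the test. Over all tested genes 1.80% differed, 1.47% higher in gut and 0.329% lower. The median log2 fold change of the 8 genes was 2.10, against -0.01 for all genes tested. Adjusted p-values are from edgeR's quasi-likelihood test on all tested genes, with Benjamini-Hochberg adjustment, and levels are CPM, scaled to TMM library sizes, unless a level per kilobase is named. In bulk samples, fewer cells of a type and less RNA per cell cannot be told apart.

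Fosb, a FOS protein gene of the immediate early kind, had 527, 167 and 168 CPM in siLP CARko libraries a, b and c and 326, 118 and 145 CPM in siLP WT libraries. In cLP it had 305, 272 and 258 CPM in CARko and 265, 134 and 162 CPM in WT libraries. In spleen it had 29.4, 16.5 and 14.4 CPM in CARko and 14.0, 18.1 and 6.45 CPM in WT libraries. Every gut library was above every spleen library, and library a was the highest of its group in each gut group. Fosb averaged 237 ± 116 CPM in gut and 16.5 ± 7.50 CPM in spleen (SD, n = 12 and 6), a log2 fold change of 3.86 ± 0.38 (SE) with an edgeR adjusted p of 3.86e-05.

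Fosl2 encodes FRA2, a FOS family protein without the strong activation domain of FOS. It had 99.1, 32.7 and 17.0 CPM in siLP CARko and 35.7, 16.5 and 10.3 CPM in siLP WT libraries a, b and c. In cLP it had 150.2, 78.8 and 40.0 CPM in CARko and 81.0, 39.6 and 22.9 CPM in WT libraries. In spleen it had 4.69, 2.21 and 2.45 CPM in CARko and 0.138, 1.80 and 1.52 CPM in WT libraries. Gut and spleen did not overlap, and within each gut group the order of libraries was a, then b, then c. Fosl2 averaged 52.0 ± 42.0 CPM in gut and 2.13 ± 1.49 CPM in spleen, a log2 fold change of 4.59 ± 0.62 with an edgeR adjusted p of 0.000646.

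Atf3, a stress-inducible bZIP gene whose protein can repress as well as activate, was close to absent in spleen. It had 17.9, 13.7 and 22.8 CPM in siLP CARko and 41.0, 9.06 and 25.9 CPM in siLP WT libraries a, b and c. In cLP it had 18.7, 51.8 and 96.8 CPM in CARko and 35.1, 23.2 and 86.6 CPM in WT libraries. In spleen it had 0, 0 and 1 counts in CARko and 0, 19 and 0 counts in WT libraries. Thus 4 of 6 spleen libraries held no Atf3 count, for which a count of 0 allows up to 0.126 to 0.158 CPM (3 counts), and 1 WT library held 19 of the 20 spleen counts. Pooled over libraries and scaled for library size, gut had 241 times the Atf3 of spleen (95% counting interval 156 to 394), which covers counting error only. The edgeR adjusted p was 0.00013, and the fitted log2 fold change of 8.78 ± 0.99 depends on the prior count.

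Fos, the founding immediate early gene of the family, had 1858, 1038 and 1235 CPM in siLP CARko and 1129, 1018 and 932 CPM in siLP WT libraries. In cLP it had 375, 731 and 1209.8 CPM in CARko and 435, 737 and 1149 CPM in WT libraries. In spleen it had 124, 333 and 129 CPM in CARko and 111, 419.6 and 119 CPM in WT libraries. Gut and spleen overlapped through library a of cLP CARko (375 CPM) and library b of spleen WT (419.6 CPM). Fos averaged 987 ± 397 CPM in gut and 206 ± 135 CPM in spleen, a log2 fold change of 2.22 ± 0.38 with an edgeR adjusted p of 0.00415.

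Jun, whose protein is the classic partner of FOS, had 185, 195 and 118 CPM in siLP CARko and 93.8, 176 and 158 CPM in siLP WT libraries. In cLP it had 62.8, 46.1 and 89.8 CPM in CARko and 42.0, 67.6 and 101 CPM in WT libraries. In spleen it had 33.0, 49.6 and 16.3 CPM in CARko and 35.4, 64.9 and 23.5 CPM in WT libraries. The siLP libraries all lay above the spleen libraries, and the cLP libraries overlapped them. Jun averaged 111 ± 54.8 CPM in gut and 37.1 ± 17.7 CPM in spleen, a log2 fold change of 1.47 ± 0.30 with an edgeR adjusted p of 0.0168. The call for Jun was lost without the 6 libraries a (log2 1.55, adjusted p 0.0749), without spleen WT a (0.0581), without spleen WT c (0.0697) or without spleen CARko c (0.0537).

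Junb and Jund, whose proteins can restrain as well as share in JUN activity, had gut means well above their spleen means and did not pass the test. Junb averaged 921 ± 533 CPM in gut and 233 ± 172 CPM in spleen (log2 1.97 ± 0.56, edgeR adjusted p 0.0995). Jund averaged 91.3 ± 34.2 CPM in gut and 33.3 ± 21.7 CPM in spleen (log2 1.46 ± 0.43, edgeR adjusted p 0.117). For both genes library a was the lowest of its group in 5 of 6 groups (not in siLP CARko), library b was the highest in spleen, and gut and spleen overlapped. Junb lay between 199 and 841 CPM in the gut libraries a and between 537 and 1627 CPM in the gut libraries b and c, against 83.6 and 87.1 CPM in the spleen libraries a and 149.8 to 457 CPM in the spleen libraries b and c. Jund lay between 34.0 and 86.2 CPM in the gut libraries a and between 74.1 and 132 CPM in b and c, against 10.9 and 11.4 CPM in the spleen libraries a and 24.2 to 61.7 CPM in b and c.

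Among libraries of the same letter, each of the 4 gut libraries was above both spleen libraries for Junb and Jund in 3 of 3 letters. The same held in 3 of 3 for Fos, Fosb, Fosl2 and Atf3, in 2 of 3 for Jun and in 0 of 3 for Batf. The share of all tested genes for which this held was not counted. With the letter as a block, Junb (log2 2.01, edgeR adjusted p 0.0115) and Jund (1.64, 0.00444) passed the test. DESeq2 also called both, with adjusted p 0.00289 for Junb and 0.0111 for Jund, and so did limma-voom with quality weights, with 0.00414 and 0.00372. The block, DESeq2 and limma-voom also called more of all tested genes in this comparison than the main test, as listed in the last section. Without the 6 libraries a, Jund passed (log2 1.32, adjusted p 0.0367). Junb passed with no low-count filter (log2 1.98, edgeR adjusted p 0.0387) and without library a of cLP WT (2.11, 0.0475). The letters only name the column order, and what the libraries of a letter share is not given in the sources used here. An annotated antisense RNA or neighbouring gene on the opposite strand overlaps Jun, Junb, Jund and Atf3, and the counts may not separate the strands. For Junb that neighbour is Prdx2, which had 227 to 393 CPM in gut and 285 to 502 CPM in spleen libraries.

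Batf stood near the same level in both regions. It had 205, 205 and 165 CPM in siLP CARko and 336, 338 and 177 CPM in siLP WT libraries. In cLP it had 275, 227 and 103 CPM in CARko and 329, 352 and 150.1 CPM in WT libraries. In spleen it had 130.0, 248 and 112 CPM in CARko and 292, 300.3 and 156 CPM in WT libraries. Gut and spleen overlapped over most of their range. Batf averaged 238 ± 85.0 CPM in gut and 206 ± 83.8 CPM in spleen, a log2 fold change of 0.22 ± 0.26 with an edgeR adjusted p of 0.839.

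**Figure D1:**
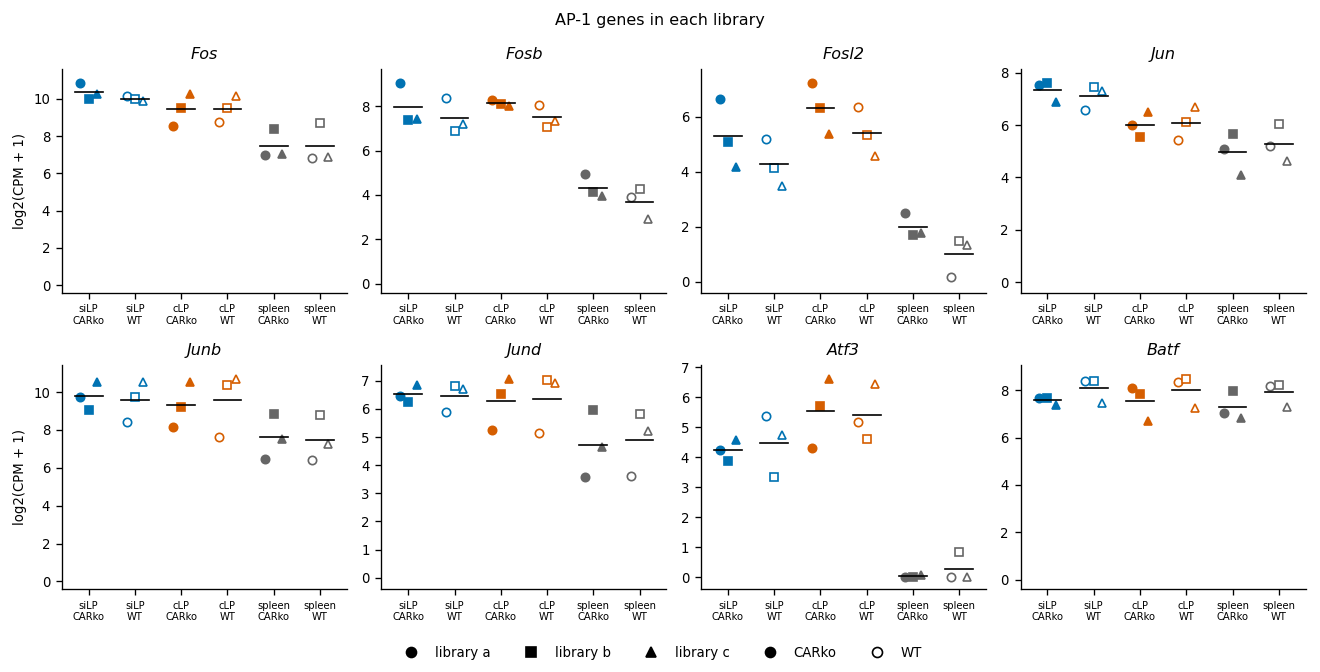
Each panel plots 1 AP-1 gene as log2(CPM + 1) in the 18 libraries, with siLP in blue, cLP in orange and spleen in grey, filled symbols for CARko, open symbols for WT, the symbol shape for the library letter and a black line for the mean of 3. Fosb, Fosl2 and Atf3 in gut lie above every spleen library, while the Batf values of the 6 groups overlap.

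Taken organ by organ and genotype by genotype, the edgeR test called Fosb and Atf3 in each of 4 comparisons of gut with spleen, and Fosl2 in both cLP comparisons. The comparisons within a genotype share their spleen libraries, so they are not independent. In siLP CARko against spleen CARko, 2 of 8 genes were called, against 0.215% of all tested genes: Fosb (log2 3.84 ± 0.57, edgeR adjusted p 0.00768) and Atf3 (9.72 ± 1.57, 0.0146). In cLP CARko against spleen CARko, 3 of 8 were called, against 0.484% of all: Fosb (3.79 ± 0.57, 0.00679), Fosl2 (4.85 ± 0.92, 0.0258) and Atf3 (11.34 ± 1.62, 0.00527). In siLP WT against spleen WT, 2 of 8 were called, against 0.188% of all: Fosb (3.93 ± 0.57, 0.00724) and Atf3 (6.56 ± 1.23, 0.0450). In cLP WT against spleen WT, 3 of 8 were called, against 0.376% of all: Fosb (3.86 ± 0.57, 0.00577), Fosl2 (5.36 ± 0.95, 0.0155) and Atf3 (7.49 ± 1.28, 0.0113). Fosb thus gave log2 fold changes between 3.79 and 3.93 in the 4 comparisons.

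Some of these calls were lost when 1 library was left out. The Atf3 call in siLP WT was lost in 15 of 18 fits without 1 library (edgeR adjusted p up to 0.237), holding only without spleen WT b, spleen CARko a or cLP CARko a. Without spleen WT b its fitted log2 fold change was 12.13. Fosl2 in cLP CARko was lost in 5 of 18 fits, without any 1 spleen CARko library or without cLP CARko a or b. Fosl2 in cLP WT was lost in 3, each without 1 spleen WT library. The Atf3 calls were lost in 3 fits in siLP CARko (each without 1 spleen CARko library), in 1 in cLP CARko (without spleen CARko c) and in 2 in cLP WT (without spleen WT a or c). Fosb was lost without spleen WT a or c in both WT comparisons, without spleen CARko b or c in siLP CARko and without spleen CARko c in cLP CARko. With only the compared groups fitted, 2 of 8 genes (Fosb and Atf3) were called in cLP CARko and 0 in the other 3. In both siLP fits of that kind 0 of all tested genes were called, and the numbers for cLP are listed in the last section.

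**Figure D2:**
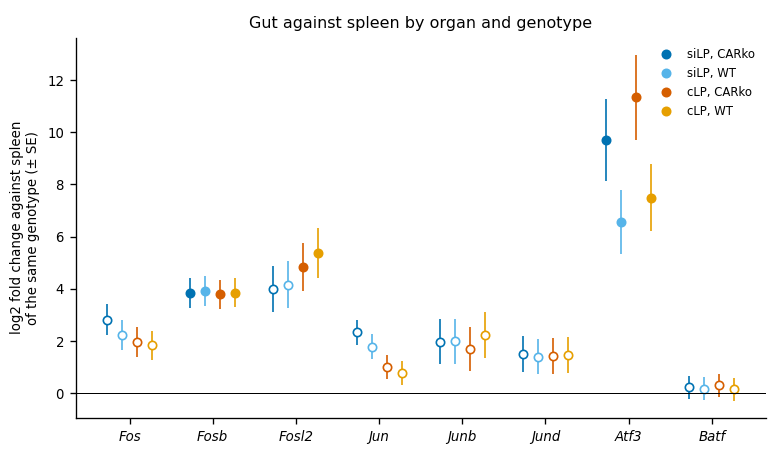
The y axis gives the log2 fold change of each gene in siLP or cLP against spleen of the same genotype, with bars for the standard error and filled points for an edgeR adjusted p under 0.05. The 4 points of Fosb lie between 3.79 and 3.93, and those of Batf lie near 0.

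The edgeR test called none of the other genes in these single comparisons, and other fits called more. DESeq2 called 5 of 8 (Fos, Fosb, Fosl2, Jun and Atf3) in siLP CARko and in siLP WT, against 1.51% and 0.928% of all tested genes. Limma-voom called 4 of 8 in siLP WT (Fos, Fosb, Jun and Atf3), against 0.706% of all, and 6 of 8 in cLP WT (not Jun or Batf), against 5.30% of all. The block by letter called the same 5 genes as DESeq2 in siLP CARko, against 0.518% of all. By edgeR, Fos had a log2 fold change of 2.82 ± 0.59 in siLP CARko (edgeR adjusted p 0.0720) and 2.25 ± 0.58 in siLP WT (0.254), and all 3 siLP libraries of each genotype were above the spleen libraries of that genotype. Jun had 2.33 ± 0.48 in siLP CARko (0.0703) and 1.79 ± 0.47 in siLP WT (0.304), with no overlap either. How many of all tested genes separated like this was not counted. In cLP, Jun had 1.01 ± 0.46 in CARko (0.472) and 0.77 ± 0.46 in WT (0.850), and the groups overlapped. The 2 gut organs were therefore also set against each other.

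By edgeR, no AP-1 gene was called between siLP and cLP with the genotypes averaged. The test called 0 of 8, and 0% of all genes, although 1240 genes had an unadjusted p under 0.05, DESeq2 called 217 and limma-voom 434. Jun averaged 154 ± 40.1 CPM in siLP and 68.2 ± 23.4 CPM in cLP (log2 1.17 ± 0.33, edgeR adjusted p 0.222), and siLP was higher in 6 of 6 pairs of the same genotype and letter, by 1.32 to 4.23 times. Limma-voom called Jun, with an adjusted p of 0.0355. Fosl2 averaged 35.2 ± 32.8 CPM in siLP and 68.8 ± 46.2 CPM in cLP (log2 -1.03 ± 0.56, edgeR adjusted p 0.695), and siLP was lower in 6 of 6 pairs, at 0.415 to 0.660 of the cLP value. Atf3 averaged 21.7 ± 11.2 CPM in siLP and 52.0 ± 32.9 CPM in cLP (log2 -1.28 ± 0.68, edgeR adjusted p 0.686), and siLP was higher in 1 of 6 pairs. Fos averaged 1202 ± 337 CPM in siLP and 773 ± 349 CPM in cLP (log2 0.62 ± 0.39, edgeR adjusted p 0.776), and siLP was higher in 5 of 6 pairs. The share of all tested genes with 6 of 6 such pairs on 1 side was not counted.

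The mean make-up of the AP-1 RNA per length of transcript, which follows from the same counts and was not tested, differed between gut and spleen. For this, CPM was divided by the length of each gene's longest transcript in GENCODE vM21, from 955 bases for Batf to 6537 for Fosl2. The 8 genes then summed to 1406 ± 379 CPM per kilobase in gut (776 to 1834) and 479 ± 235 CPM per kilobase in spleen (268 to 817). Batf had the highest CPM per kilobase of the 8 in 6 of 6 spleen libraries (in 5 of 6, with Junb in the other, per kilobase of all annotated exons). In gut, Fos was highest in 5, Junb in 5 and Batf in 2 of 12 libraries, and both of those 2 were cLP libraries a.

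Batf held 20.3 ± 11.6% of the summed CPM per kilobase in gut and 47.4 ± 13.4% in spleen. Fos held 32.7 ± 8.12% in gut and 19.6 ± 4.31% in spleen. Junb held 33.6 ± 14.0% in gut and 25.2 ± 9.30% in spleen. These 3 genes together made up 80.0 to 94.9% of the sum in the 18 libraries. Of the others, Fosb held 4.97% in gut and 1.12% in spleen, Atf3 1.36% in gut and 0.00925% in spleen, and Fosl2 0.722% in gut and 0.0910% in spleen. Jund, at 3.81% in gut and 4.08% in spleen, kept nearly the same mean share. Jun held 3.52% in siLP CARko and 3.06% in siLP WT, 1.83% in cLP CARko and 1.58% in cLP WT, and 2.56% in spleen CARko and 2.44% in spleen WT. The ratio of Fos to Batf in CPM per kilobase was 0.599 to 5.33 in gut libraries (median 1.91) and 0.172 to 0.633 in spleen libraries (median 0.475). The ranges met through the cLP libraries a, which held the lowest gut ratios.

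**Figure D3:**
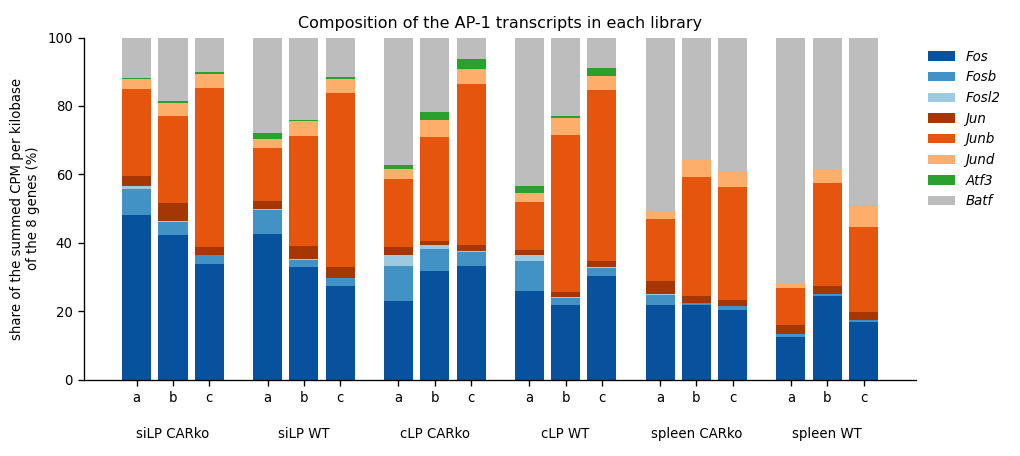
Each stacked bar gives the percentage of the summed CPM per kilobase of the 8 AP-1 genes held by each gene in 1 library, with the libraries a, b and c of each group side by side. Batf (grey, on top) holds 35.7 to 71.8% in the spleen libraries and 6.26 to 43.4% in the gut libraries.

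Other genes of early T cell activation were higher in gut beside the AP-1 genes. Of 27 tested immediate early and activation genes, 20 rose and 0 fell in gut against spleen, with a median log2 fold change of 2.31. Tnfaip3, an inhibitor of NF-kappaB signalling, averaged 944 ± 289 CPM in gut and 91.9 ± 25.3 CPM in spleen (log2 3.35 ± 0.25, edgeR adjusted p 2.98e-06). Nr4a1, a nuclear receptor induced by antigen receptor signals, averaged 148 ± 67.7 CPM in gut and 4.50 ± 2.21 CPM in spleen (log2 5.04 ± 0.45, adjusted p 1.68e-05). Dusp5, a phosphatase of ERK kinases, averaged 238 ± 89.3 CPM in gut and 29.1 ± 8.13 CPM in spleen (log2 2.97 ± 0.25, adjusted p 1.24e-05).

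Of 24 other AP-1 and related bZIP genes, 4 rose and 0 fell, with a median of 0.30. Crem, a cyclic AMP responsive regulator, averaged 354 ± 346 CPM in gut and 38.4 ± 15.5 CPM in spleen (log2 2.79 ± 0.42, edgeR adjusted p 0.00145). Maff, a small MAF protein gene, averaged 6.18 ± 2.69 CPM in gut and 0.656 ± 0.460 CPM in spleen (log2 3.40 ± 0.55, adjusted p 0.00295). Nfil3, a bZIP repressor, averaged 80.4 ± 31.4 CPM in gut and 14.9 ± 10.6 CPM in spleen (log2 2.46 ± 0.42, adjusted p 0.00412). The fourth was the stress response gene Atf4 (log2 1.16 ± 0.25, adjusted p 0.0231), named after its value was seen.

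Upstream of AP-1, 1 of 24 MAP kinase pathway genes rose and 0 fell, with a median of 0.06. That gene was Map3k8, a kinase that activates the ERK pathway, with 172 ± 110 CPM in gut and 47.1 ± 22.2 CPM in spleen (log2 1.83 ± 0.42, edgeR adjusted p 0.0357). Map2k3, a MAP kinase kinase, did not pass (log2 0.94 ± 0.37, edgeR adjusted p 0.256).

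Of 24 AP-1 partners and target genes in T cells, 7 rose and 0 fell, with a median of 1.11. Ctla4, an inhibitory receptor, averaged 459 ± 158 CPM in gut and 55.5 ± 34.2 CPM in spleen (log2 3.06 ± 0.35, edgeR adjusted p 0.000131). Irf4, the DNA-binding partner of BATF and JUN proteins, averaged 72.5 ± 26.6 CPM in gut and 15.1 ± 4.13 CPM in spleen (log2 2.27 ± 0.28, adjusted p 0.000238). Tnf, an inflammatory cytokine gene, averaged 120.5 ± 81.2 CPM in gut and 22.1 ± 10.4 CPM in spleen (log2 2.29 ± 0.32, adjusted p 0.000814). All 4 lists were chosen with earlier results of these data known, so their counts are descriptions.

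**Figure D4:**
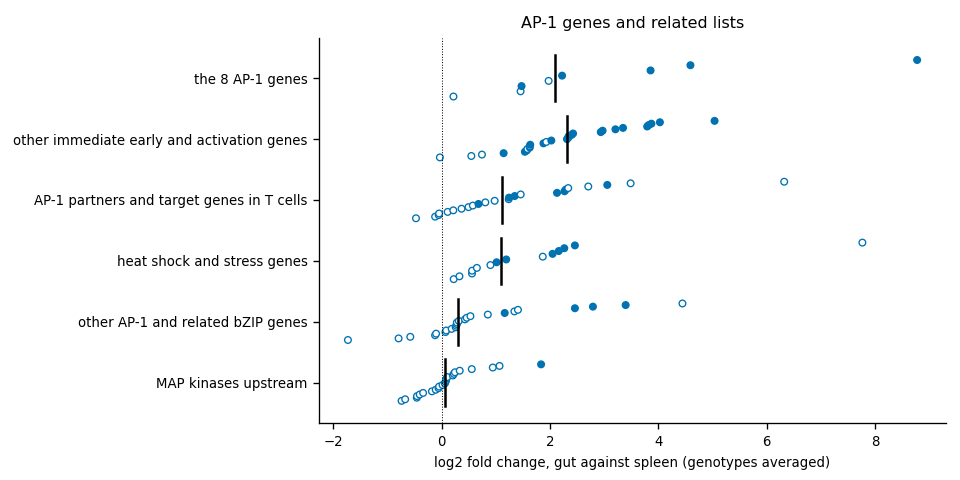
The x axis gives the log2 fold change in gut against spleen, genotypes averaged, for the 8 AP-1 genes and the tested genes of 5 lists, with filled points for an edgeR adjusted p under 0.05 and a black bar for each list's median. The medians run from 0.06 for the MAP kinases to 2.31 for the immediate early genes, with 2.10 for the 8 AP-1 genes.

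Stress genes and genes of other cells moved with the comparison of gut and spleen. Of 14 heat shock genes, 6 rose and 0 fell in gut, with a median log2 fold change of 1.10, and the block by letter and limma-voom each called 11 of them. Dnajb1 had 357 ± 114 CPM in gut and 79.8 ± 18.8 CPM in spleen (log2 2.16 ± 0.26, edgeR adjusted p 0.000214), Hsp90aa1 had a log2 fold change of 1.19 ± 0.15 (0.000249) and Dnajb4 of 2.26 ± 0.31 (0.000696). The part of heat shock and tissue digestion in the AP-1 levels was not tested.

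Summed stromal and endothelial markers came to 67.1 to 1212 CPM in gut and 47.5 to 81.5 CPM in spleen, and 1 of 5 tested, the fibroblast gene Dcn, was called (log2 11.19, edgeR adjusted p 0.00351). The sums were 672 to 1212 CPM in the 4 cLP libraries b and c, 104 to 391 CPM in the 4 gut libraries a, and 67.1 to 77.3 CPM in the 4 siLP libraries b and c, against 47.5 to 58.5 CPM in the 4 spleen libraries b and c. In those siLP and spleen libraries most of each sum was the listed gene Pecam1, so the sums say little about fibroblast RNA. Pecam1 was 43.5 to 104 CPM over all gut libraries and 46.8 to 80.8 CPM over all spleen libraries. Dcn itself was 3.05 to 9.15 CPM in those 4 siLP libraries and 0.0422 to 0.245 CPM in those 4 spleen libraries. The macrophage gene Lyz2 was 24.6 to 119 CPM in those siLP and 2.78 to 7.44 CPM in those spleen libraries. The siLP libraries b and c thus held more Dcn and Lyz2 than the spleen libraries b and c. In these 4 siLP libraries Fosb was 118 to 168 CPM, Fosl2 10.3 to 32.7 CPM and Atf3 9.06 to 25.9 CPM. Fos was 932 to 1235 CPM and Jun 118 to 195 CPM in them. In the 4 spleen libraries b and c, Fosb was 6.45 to 18.1 CPM, Fosl2 1.52 to 2.45 CPM, Atf3 0 to 0.777 CPM, Fos 119 to 419.6 CPM and Jun 16.3 to 64.9 CPM. These 5 genes did not overlap between the siLP and spleen libraries b and c, and neither did Junb (537 to 1491 CPM in siLP, 149.8 to 457 CPM in spleen) or Jund (74.1 to 115 CPM in siLP, 24.2 to 61.7 CPM in spleen). How many of all tested genes separated in the same way was not counted, and the part of stroma was not tested.

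Without the 4 cLP libraries b and c, 4 of the 8 genes were called in gut against spleen, against 4.07% of all genes tested in that fit. Fos (log2 1.74, edgeR adjusted p 0.0245), Fosb (4.01, 0.000609), Fosl2 (4.96, 0.00194) and Atf3 (8.26, 0.00194) passed, and Jun did not (1.26, 0.0526). In that fit the median of all genes was -0.23. Junb (0.99) and Jund (0.77) then had lower log2 fold changes than with all libraries, and the single comparisons of siLP with spleen called 0 of 8 genes, against 0.0300% of all in CARko and 0.0180% in WT, with adjusted p 0.0571 and 0.0782 for Fosb in CARko and WT and 0.0808 and 0.179 for Atf3. Summed epithelial markers came to 4.73 to 278 CPM in gut and 7.70 to 13.0 CPM in spleen (0 of 9 tested called, all 9 with a log2 fold change above 0, Cdh1 at 4.56 with an edgeR adjusted p of 0.0736). Lgals4 reached 126 CPM and Krt19 46.0 CPM in gut, against 12.9 and 0.126 CPM in spleen, while Krt20 and Fabp1 were at 0 in 15 of 18 libraries. Summed macrophage and neutrophil markers came to 19.9 to 164 CPM in gut and 19.3 to 49.8 CPM in spleen (0 of 10 called higher and 1, S100a8, called lower in gut). Lyz2 did not overlap, with 7.92 to 119 CPM in gut and 0 to 7.44 CPM in spleen (log2 3.59, edgeR adjusted p 0.0737). Summed erythroid markers came to 0.454 to 18.7 CPM in gut and 136 to 2126 CPM in spleen (3 of 5 lower in gut). Summed B and plasma cell markers reached at most 38.6 CPM in gut and 7.08 CPM in spleen, and mast cell markers at most 4.81 and 1.43 CPM. Their part in the AP-1 differences was not tested.

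None of the 8 AP-1 genes passed the test for CARko against WT cells. Averaged over the 3 organs, the edgeR test called 0 of 8, against 0.0134% of all tested genes (2 genes). In that comparison 859 of 14876 genes had an unadjusted p under 0.05. In each single organ it called 0 of 8 and 0% of all genes, with 641, 363 and 290 genes at an unadjusted p under 0.05 in siLP, cLP and spleen. DESeq2 called 35, 12 and 17 genes there and limma-voom 2, 3 and 5. The difference of the CARko effect between gut and spleen was called for 0 of 8 and for 0% of all genes by edgeR, with 228 genes at an unadjusted p under 0.05, and DESeq2 called 9.

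Fosl2 had the smallest p-value of the 8 genes, with a log2 fold change of 1.19 ± 0.46 in CARko over WT (unadjusted p 0.0206, edgeR adjusted p 0.726). Its values, listed above, were higher in CARko in 9 of 9 pairs of the same organ and letter, by 1.65 to 2.77 times in the 6 gut pairs. Such pairs rest on column order alone, and the share of all tested genes that went 1 way in them was not counted. In spleen, the 3 CARko libraries (2.21 to 4.69 CPM) were above the 3 WT libraries (0.138 to 1.80 CPM), of which library a held only 3 counts. How many of all tested genes separated by genotype in spleen was not counted. The log2 fold change was 1.25 ± 0.79 in siLP, 0.91 ± 0.79 in cLP and 1.42 ± 0.83 in spleen (edgeR adjusted p 1 in each). CARko and WT overlapped in siLP and cLP, where library c of CARko lay below library a of WT.

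Batf was lower in CARko in 9 of 9 such pairs, at 0.607 to 0.934 of the WT value in the 6 gut pairs. It averaged 186 ± 61.3 CPM in CARko and 269.9 ± 84.1 CPM in WT (SD, n = 9 each), a log2 fold change of -0.54 ± 0.25 (unadjusted p 0.0433, edgeR adjusted p 0.846). By organ it was -0.56 ± 0.43 in siLP, -0.46 ± 0.43 in cLP and -0.61 ± 0.43 in spleen (edgeR adjusted p 1 in each), and the genotypes overlapped in each organ.

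Fosb was higher in CARko in 8 of 9 pairs, the exception being spleen library b (16.5 CPM in CARko, 18.1 CPM in WT). Its log2 fold change was 0.59 ± 0.29 (edgeR adjusted p 0.882), with 0.55 ± 0.51 in siLP, 0.57 ± 0.51 in cLP and 0.64 ± 0.51 in spleen. Atf3 had -1.30 ± 0.71 (edgeR adjusted p 0.904), and 0.55 without the spleen WT library that held 19 counts. Fos (0.09 ± 0.32), Jun (-0.06 ± 0.27), Junb (-0.08 ± 0.48) and Jund (-0.07 ± 0.38) were near 0 with errors of up to 0.48, and CARko was higher in 6, 3, 5 and 5 of 9 pairs.

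**Figure D5:**
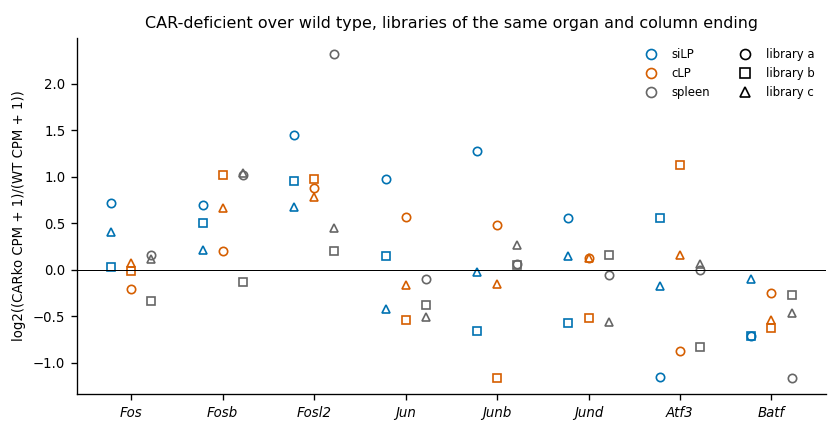
The y axis gives log2((CARko CPM + 1)/(WT CPM + 1)) for libraries of the same organ and column letter, 9 pairs a gene, coloured by organ and shaped by letter. The 9 points of Fosl2 lie above 0 and the 9 of Batf below 0, while the other genes lie on both sides of 0.

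Few genes of the 5 lists were called for CARko against WT averaged over organs. Of 27 immediate early genes 1 rose, Btg2, an antiproliferative gene, with 342 ± 183 CPM in CARko and 106 ± 50.5 CPM in WT (log2 1.66 ± 0.19, edgeR adjusted p 0.00362). The next 2 of that list, Rgs2 (log2 0.80 ± 0.38, adjusted p 0.859) and Tnfaip3 (0.38 ± 0.19, 0.892), did not pass. Of the 24 AP-1 partners and target genes 0 were called, and the smallest p-values belonged to the cytokine gene Il10 (log2 -1.78 ± 0.56, adjusted p 0.525), the costimulatory receptor gene Icos (-0.76 ± 0.25, 0.592) and the death ligand gene Fasl (0.72 ± 0.27, 0.717). Il10 averaged 55.7 ± 47.2 CPM in CARko and 190.3 ± 197 CPM in WT.

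Of the 24 other bZIP genes 0 were called, with Atf6 (log2 -0.57 ± 0.26, edgeR adjusted p 0.838), Maf (-0.50 ± 0.30, 0.955) and Bach2 (0.80 ± 0.62, 1.00) first by p-value. Of the 24 MAP kinase genes 0 were called, with Map3k8 (0.69 ± 0.37, 0.897) and Sos1 (0.46 ± 0.29, 0.970) among the first. Of the 14 heat shock genes 0 were called, with Dnajb4 (0.52 ± 0.26, 0.889), Hsp90aa1 (-0.19 ± 0.13, 0.989) and Hspa1a (-0.23 ± 0.30, 1.00) first. Hspa1a shares reads with its near-identical copy Hspa1b, so its value is uncertain. The edgeR test thus called Btg2 among these genes and no AP-1 gene, and a gene not called may still differ between the genotypes.

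Within the groups, the AP-1 genes varied from library to library in different company. The measure was Pearson's r of log2 CPM after subtracting each group's mean, over 18 libraries and among 8516 genes with a mean of at least 5 CPM. These libraries share depth and the letters a to c, so r is a description. Fos went most closely with Dusp1 (0.93), Phlda1 (0.92) and Nfkbia (0.89), and Fosb with Ifng (0.88), Slc38a2 (0.87) and Tnfaip3 (0.87). Atf3 went with Nr4a1 (0.72), Phlda1 (0.71) and Plk3 (0.71). Fosl2 had another set, Pnpla8 (0.94), Spag9 (0.94) and Gramd1b (0.90). Junb went with Lypla2 (0.96), Aldoa (0.96) and Arf1 (0.95), and Jund with Rnh1 (0.99), Atp5a1 (0.98) and Aldoa (0.97). Junb and Jund also went with each other (0.93). Jun had weaker neighbours, Rfc5 (0.84), Efhd2 (0.81) and Hist1h4d (0.80), and Batf had Ssr2 (0.89), Pde4d (0.89) and Gstp3 (0.88).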

How the data were processed

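Per the labels' protocols, cDNA for the 18 libraries came from the Clontech SMART-Seq v4 kit and libraries from NEBNext Ultra II. The deposited table holds estimated counts per gene and library, per the file headers. Its 37 other columns were not used, because columns without replicate numbers can be matched to the samples for 1 measure only. Levels per length, planned on deposited length-scaled values, were therefore CPM per kilobase of the longest GENCODE transcript. The submitters' processing notes name Salmon, DESeq2 and mm10 without versions, and 38.1% of the deposited counts were not whole. The columns named CD45.1 negative were taken as CARko by elimination. Columns carry no replicate numbers, so a, b and c only name the column order within a group. Gene symbols and positions came from GENCODE vM21 (34083 of 34162 IDs matched).

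Counts were rounded, filtered with filterByExpr (14876 genes), scaled by TMM and fitted as 6 group means over 18 libraries (common biological coefficient of variation 0.791) with edgeR 4.0.16 (R 4.3.3) glmQLFit and glmQLFTest, two-sided, Benjamini-Hochberg threshold 0.05. The SE was derived from the fold change and the F statistic. A floor of 3 counts was 0.108 to 0.185 CPM, and intervals cover counting error only, since reads are PCR copies. The pipeline was tested on simulated data. For the genotype effect averaged over organs, it called 15 of 50 genes with a true log2 change of 1 and 39 of 50 with 2. For the genotype effect in siLP it called 1 of 50 and 17 of 50.

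The members and lists were chosen with earlier results of these data known. Named genes are the 8 members, the 3 members of each list with the smallest p in gut against spleen and in the genotype effect averaged over organs, and the 3 genes closest to each member; some genes that this rule names are not reported here. Alternatives were DESeq2 1.42.0 (test and size factors), limma 3.58.1 voom, no filter, a block by letter, each library left out, the libraries a left out, only the compared groups and, chosen after seeing the data, the 4 cLP libraries b and c left out and lengths over all exons. Libraries of the same letter deviated together (r over 0.1 in 41 of 45 pairs, against 7 of 90 other pairs).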

Additional observations from a re-analysis of the deposited data

How the results depend on the processing

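Fos, Fosb, Fosl2 and Atf3 stayed past the threshold in gut against spleen, genotypes averaged, in 18 of 18 fits without 1 library, and the direction of that comparison did not turn for any of the 8 genes under any alternative run. The numbers of genes called are listed below in 1 order: CARko against WT in siLP, cLP and spleen and averaged, then siLP and cLP against spleen in CARko, siLP and cLP against spleen in WT, gut against spleen, siLP against cLP, and the difference of the genotype effect between gut and spleen. The main test called 0, 0, 0, 2, 32, 72, 28, 56, 268, 0 and 0. DESeq2's test called 35, 12, 17, 123, 225, 456, 138, 294, 835, 217 and 9. Limma-voom called 2, 3, 5, 11, 57, 536, 105, 789, 1019 and 434 in the first 10. With no low-count filter 10 genes were called for the averaged genotype effect and 32 for siLP against cLP. With only the compared groups fitted, 0 and 14 (CARko) and 0 and 11 (WT) were called in siLP and cLP against spleen. Without the 6 libraries a, 1, 2 and 1 were called for the genotype in single organs, 19 and 143 in siLP and cLP against spleen in CARko, 124 in cLP against spleen in WT and 162 in siLP against cLP. Without the 4 cLP libraries b and c, 179 were called for the genotype in cLP, 91 averaged, 5, 362, 3 and 127 in the single comparisons with spleen, 679 in gut against spleen, 567 in siLP against cLP and 13 for the difference of genotype effects. The cause of these shifts was not tested.

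With the replicate block by column ending, 7 genes were called for the averaged genotype effect, 77, 171, 64 and 144 in the single comparisons with spleen, 526 in gut against spleen and 16 in siLP against cLP. The titles number the replicates and the columns do not, so this pairing is by column order alone, and same-letter libraries correlated from 0.0230 to 0.400.

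Leaving out 1 library gave 142 to 257 genes in gut against spleen, 5 to 38 and 10 to 75 in siLP and cLP against spleen in CARko, 3 to 28 and 13 to 76 in WT, 1 to 3 for the averaged genotype effect, 0 to 10 in siLP against cLP and 0 in the other comparisons. Members near 0 in the averaged genotype effect turned sign over these fits: Fos ran from -0.12 to 0.39, Jun from -0.21 to 0.10, Junb from -0.37 to 0.23, Jund from -0.37 to 0.10 and Atf3 from -1.95 to 0.55, and Fosb in siLP from -0.24 to 1.16. In the averaged genotype effect Junb was 0.080 and Jund 0.0031 with the replicate block, and Jun 0.15, Junb 0.22 and Jund 0.014 without the 4 cLP libraries. Junb was -0.19 and Jund -0.025 in cLP WT against spleen WT without those 4 libraries, a fit in which cLP WT held 1 library. Among the lists in gut against spleen, the heat shock count moved from 6 to 10 with DESeq2 and to 11 with limma-voom or the block, and the MAP kinase count from 1 to 2 with limma-voom. Per kilobase of all exons, the gut share of Jund was 4.72%, against 3.81% per kilobase of the longest transcript, and the other 7 gut shares moved by less than 1 SD. The spleen share of Jun was 3.26% per kilobase of all exons, against 2.50%. The planned offset and levels from deposited lengths were not run.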
